A study of Mus musculus with 4 samples.

Results

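Tff3, which encodes trefoil factor 3, was 1 of the 31253 gene features in spatial transcriptomes of 4 sections of fatty mouse liver, and it was chosen by its measured level, which differed between the 2 groups and along the liver lobule. The sections were made from fresh-frozen liver with 10x Visium, an assay whose barcoded spots each take up RNA from several neighbouring cells. MAFL sections (MAFL-1 and MAFL-2) came from livers after 8 weeks on a diet labelled WD, and MASH sections (MASH-1 and MASH-2) from livers after 16 weeks on it. Where 4 values follow each other below, MAFL-1 and MAFL-2 come first, then MASH-1, then MASH-2. Model and diet time thus change together and cannot be told apart, and no section from another diet was analysed here. Strain, sex, age and the number of animals are not given in the labels, so every p-value below measures only the spread between these sections, which may be technical. The level, zone, share and correlation values of Tff3 chose it and are given as a description without a test, and only its comparisons between spot classes were tested.

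Trefoil factors are small secreted peptides with a disulfide-knotted trefoil domain. TFF3 is known above all as a product of intestinal goblet cells, which secrete it with mucins and where it takes part in the repair of the mucosal surface. It is also made by bile duct epithelium, and studies in mice have described hepatic Tff3 as a gene that falls in fatty liver and acts on glucose production. The liver lobule runs from the portal tract, where blood and the bile duct lie, to the central vein. Hepatocytes differ along that axis: periportal ones carry the cytochrome P450 gene Cyp2f2 and pericentral ones Cyp2e1.

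The mouse gene lies on chromosome 17 at chr17:31125306-31129611 (GRCm38.p6, the patch release of the mm10 build), in a row with the other trefoil genes. Tff2, a trefoil gene best known from stomach mucous cells, lies 11450 bases beyond it. Tff1 lies 31783 bases beyond Tff3 and overlaps the long noncoding RNA gene Gm15318. On the other side lies Abcg1, a cholesterol exporter gene, 7321 bases away. The near neighbours did not share the level pattern of Tff3. Abcg1 stood at 4.71 and 6.56 CPM (UMIs of the gene per 1000000 UMIs) in MAFL-1 and MAFL-2 and at 9.17 and 14.5 in the MASH sections, the opposite order, with a log2 ratio of 0.95 and an edgeR adjusted p of 0.142. Gm15318 stood between 4.26 CPM in MASH-2 and 9.05 CPM in MAFL-2, and its groups overlap. Tff2 gave 27, 10, 49 and 42 UMIs, which stand for 0.837, 0.262, 0.768 and 0.942 CPM, and its groups overlap in CPM. Tff1 gave 0 UMIs in all 4 sections, where 3 UMIs would stand for 0.0470 to 0.0930 CPM. Farther out, Umodl1 gave 0, 1, 5 and 6 UMIs and the noncoding Gm41562 none.

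The sections held 1862 to 2467 spots after spots under 500 UMIs were left out, with 32249289 to 63808230 UMIs each and median spot depths of 15431 to 25291 UMIs. MAFL-1 was the shallowest section and MASH-1 the deepest. Pairs of sections shared 1182 to 1725 barcodes, as sections on slides with 1 set of printed spot barcodes can. MAFL-1 also stood apart in endoplasmic reticulum genes: the chaperone gene Hspa5 was at 1269 CPM there (scaled by TMM, edgeR's trimmed mean of M-values) against 382 to 449 in the other sections. The labelled tissue was borne out by albumin, which made up 48049 to 56457 CPM of each section.

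Tff3 was lower in both MASH sections than in both MAFL sections. It gave 1119 UMIs in MAFL-1, or 34.7 CPM (exact Poisson 95% interval 32.7 to 36.8), and 1797 UMIs in MAFL-2, or 47.1 CPM (45.0 to 49.4). In MASH-1 it gave 792 UMIs, or 12.4 CPM (11.6 to 13.3), and in MASH-2 476 UMIs, or 10.7 CPM (9.74 to 11.7). The groups do not overlap, and the lowest MAFL section lay 2.80-fold above the highest MASH section, while the sections of a group differed 1.36-fold in MAFL and 1.16-fold in MASH. The group means were 40.9 ± 8.79 CPM in MAFL and 11.5 ± 1.23 CPM in MASH (SD, n = 2 each), a 3.51-fold ratio of geometric means, or -1.81 on the log2 scale. The edgeR fit over all genes put the difference at -1.92 on the log2 scale. The Poisson intervals cover counting error only. In a spot of many cells, fewer cells that carry a transcript and less of it per cell cannot be told apart.

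The share of spots with a Tff3 UMI followed the same order after depth was made equal. Without that step 36.8% and 51.6% of MAFL spots and 23.4% and 18.5% of MASH spots had at least 1 UMI. With every spot thinned at random to 5000 UMIs, the shares were 14.9% in MAFL-1 (299 of 2001 spots, exact binomial 95% interval 13.4 to 16.6), 19.0% in MAFL-2 (353 of 1859, 17.2 to 20.8), 5.40% in MASH-1 (131 of 2424, 4.54 to 6.38) and 4.23% in MASH-2 (78 of 1846, 3.35 to 5.25). With another random draw the shares were 15.5%, 20.7%, 5.12% and 5.47%, so the order of the MASH sections turned and that of the groups did not. Thinning left out 16 to 43 spots per section. The group means were 17.0% ± 2.86 and 4.81% ± 0.834 (SD, n = 2 each). The plot of level and share by section shows both measures.

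**Figure D1:**
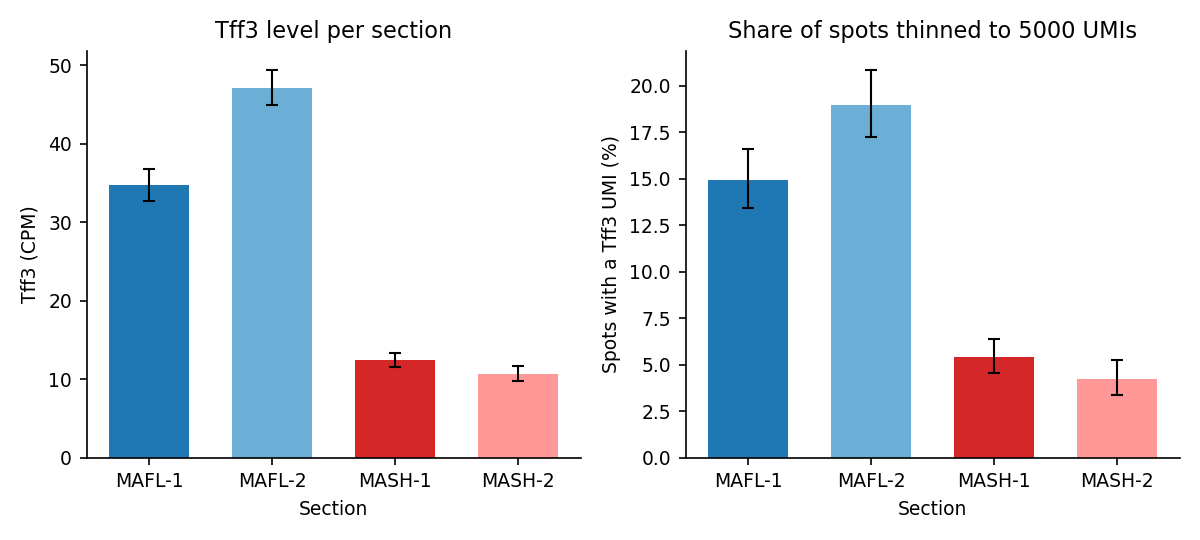
Bars give the level of Tff3 in CPM (left) and the percentage of spots thinned to 5000 UMIs with at least 1 Tff3 UMI (right) in the 2 MAFL sections (blue) and the 2 MASH sections (red). Whiskers are exact 95% Poisson (left) and binomial (right) intervals, which cover counting error only, and both MASH bars lie below both MAFL bars on each measure.

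Among 6351 genes that averaged 10 CPM or more and had at least 3 UMIs in every section, 14 had a larger fall than Tff3 in the log2 ratio of MASH to MAFL, and the median gene lay at 0.05. Of those 14, 9 were Mup genes, the major urinary proteins that hepatocytes secrete, whose near-identical copies can share reads. The other 5 were Serpina1e (-2.85), a serine protease inhibitor gene, Ugt2b38 (-2.57), a glucuronosyltransferase gene, Cish (-2.29), a feedback inhibitor of cytokine signalling, Hsd3b5 (-2.20), a steroid dehydrogenase gene, and Gm47283 (-2.18). Just after Tff3 came Gm29966 (-1.76) and the fatty acid hydroxylase gene Cyp4a31 (-1.67). These neighbours in the order were named after their values were seen. Several of them spread widely within a group: Cish stood at 33.2 and 6.06 CPM in MAFL-1 and MAFL-2, and Hsd3b5 at 35.5 and 4.04 CPM in MASH-1 and MASH-2.

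Tff3 UMIs were spread thinly over many spots. The most that 1 spot held was 8, 11, 6 and 10 UMIs. Spots with 3 or more numbered 80 and 202 in MAFL and 44 and 25 in MASH. In thinned spots the variance of the Tff3 count was 1.09 and 1.16 times its mean in MAFL-1 and MAFL-2 and 0.990 and 0.958 times in MASH-1 and MASH-2, where a Poisson count gives 1. At so few UMIs per thinned spot, moderate differences between spots move that ratio little from 1. Without thinning, where depth differs between spots, it was 1.49, 1.86, 1.52 and 1.67. In MASH-2 a single spot held 10 UMIs and the next highest held 5. By depth, the level in the deepest 25% of spots was 36.1, 57.2, 15.9 and 13.0 CPM, against 41.2, 37.0, 12.3 and 6.46 CPM in the shallowest 25%. In all sections but MAFL-1 the deepest spots were also the most periportal ones by the zone measure below.

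Along the lobule Tff3 was highest near the portal end in every section. Spots of each section were ranked by the log2 ratio of Cyp2f2 to Cyp2e1 UMIs (1 added to each) and split into 10 bins, from pericentral (bin 1) to periportal (bin 10). In MAFL-1 the level was 18.4 CPM in bin 1, 27.1 in bin 5, 55.3 in bin 8 and 54.1 in bin 10. In MAFL-2 it was 23.8, 27.2, 76.2 and 78.7 CPM in the same bins. In MASH-1 it was 4.23, 7.04, 11.5 and 27.3 CPM, and in MASH-2 3.34, 5.56, 9.91 and 16.7 CPM. The periportal end of MASH-2 thus had a level below that of the pericentral end of MAFL-1, while MASH-1 at its periportal end lay above both MAFL sections at their pericentral end.

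The MAFL-to-MASH ratio held in every bin. It ran from 2.79-fold in bin 9 to 6.07-fold in bin 8, and in each of the 10 bins the lower MAFL section lay above the higher MASH section. Over the top and bottom terciles of spots, Tff3 was 52.7 against 19.4 CPM in MAFL-1, 74.2 against 24.3 in MAFL-2, 21.1 against 5.34 in MASH-1 and 14.5 against 4.99 in MASH-2. The log2 ratio of periportal to pericentral spots was thus 1.44, 1.61, 1.98 and 1.53, and the groups overlap in it. The edgeR fit with the section as a block gave 1.64. Spots of the lower 5 bins held 30.9%, 25.2%, 21.0% and 20.6% of the Tff3 UMIs but 50.3%, 46.3%, 43.9% and 36.5% of all UMIs.

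The shape of the rise differed to the eye, and this was looked at after the values were seen. In MAFL the level climbed from bin 5 to bin 8 and then stayed near that height: bins 9 and 10 together stood at 0.970 and 1.16 times bins 7 and 8 in MAFL-1 and MAFL-2. In MASH it stepped up between bin 8 and bin 9, and there that ratio came to 2.67 and 1.73. With bins made from 10 other zone genes the ratios were 1.14 and 1.35 in MAFL and 1.70 and 1.34 in MASH, so the groups then overlapped. In spots with 0 UMIs of bile duct genes they were 0.999 and 1.09 against 2.02 and 2.50. The MASH-2 value there rests on only 3, 6, 7 and 11 Tff3 UMIs in bins 7 to 10. Those bins held 43, 30, 20 and 14 such spots. Both alternatives divide means of bin levels, while the first ratios pool UMIs over bins. The difference in shape was not tested. The plot over the lobule shows the bins of each section and the ratio of the groups under both sets of zone genes.

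**Figure D2:**
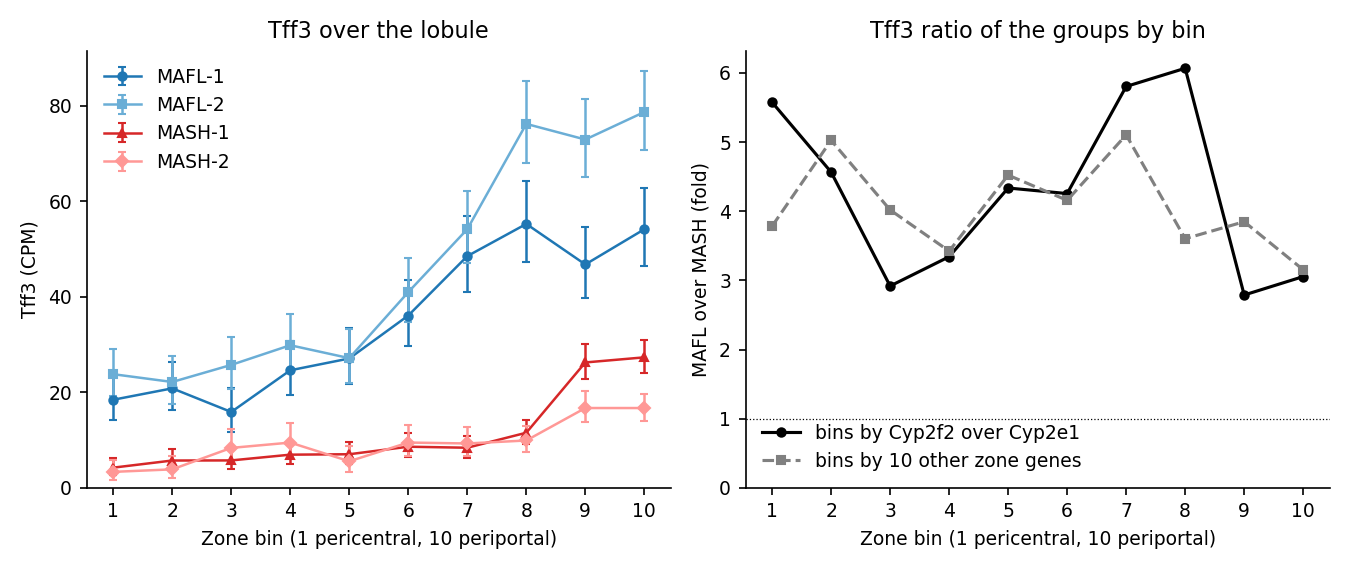
The left panel gives the Tff3 level in CPM over 10 zone bins from pericentral to periportal in each section, with exact 95% Poisson intervals. The right panel gives the geometric mean of MAFL over that of MASH in each bin. Bins were made from Cyp2f2 and Cyp2e1 (solid) or from 10 other zone genes (dashed), and the ratio stays above 1 in all bins under both.

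Genes of the bile duct lie at the same end of the lobule, so Tff3 was set against them. Of 18 listed duct genes, 17 were found in the data, among them the epithelial adhesion gene Epcam, the keratin genes Krt19 and Krt7 and the transcription factor gene Sox9. In the tercile comparison edgeR called 19.4% of 12496 genes, and 9.01% as higher in periportal spots. Of 13 duct genes tested, 12 were higher in periportal spots and 1 was not called, with a median log2 ratio of 1.26 against 0.00 for all genes. Epcam had a log2 ratio of 1.57 (adjusted p = 4.5e-10) and Krt19 of 1.26 (adjusted p = 0.000106). The sum of the duct genes was 40.1, 33.2, 35.7 and 81.1 CPM, highest in MASH-2.

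Tff3 was higher in spots with more duct transcripts, and that ratio was smaller in every section within the periportal and within the pericentral tercile than over all spots. From spots with 0 duct UMIs to spots with 4 or more, the Tff3 level went from 31.9 to 61.2 CPM in MAFL-1, from 43.7 to 77.9 in MAFL-2, from 8.69 to 31.4 in MASH-1 and from 7.45 to 15.4 in MASH-2. Spots with 2 or more duct UMIs stood at 1.62, 1.38, 2.45 and 1.81 times the level of spots with none. Within the periportal tercile those ratios were 1.22, 0.964, 1.72 and 1.34, and within the pericentral tercile 1.40, 1.29, 1.56 and 0.932. For Spp1, an osteopontin gene that bile duct cells express, the same ratio over all spots was 5.40, 4.03, 4.55 and 2.90. For Alb, the albumin gene of hepatocytes, it was 1.16, 1.18, 1.36 and 1.31, and for Sds, a periportal hepatocyte gene, 1.24, 1.32, 2.01 and 1.58. For Aldh1b1, another gene of the periportal hepatocyte list, it was 2.20, 1.73, 2.46 and 2.03, above Tff3 in each section. In spots with 0 duct UMIs Spp1 still stood at 47.2, 36.3, 42.7 and 133 CPM. Spp1, Alb, Sds and Aldh1b1 were picked after their values were seen, so these ratios stand side by side as a description.

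Spots with 0 duct UMIs held 53.5% and 50.6% of the Tff3 UMIs in MAFL-1 and MAFL-2 but 31.2% in MASH-1 and 15.3% in MASH-2. Spots with 2 or more duct UMIs held 19.5%, 20.2%, 41.4% and 66.2% of them, and 13.1%, 15.9%, 24.1% and 52.4% of all UMIs. More spots of the MASH sections carried duct UMIs without thinning, at 20.4% and 40.7% with 2 or more against 12.6% and 13.6% in MAFL. These shares follow depth: in spots thinned to 5000 UMIs they were 3.10%, 1.72%, 2.39% and 6.61%, so that MASH-1, the deepest section, lay between the MAFL sections and only MASH-2 lay above them. Among spots with 0 duct UMIs alone, the gap between the groups was -2.21 on the log2 scale, against -1.81 over all spots. Those spots were not matched for zone or depth. Of them, 351 of 1220, 293 of 1088, 265 of 1233 and 76 of 571 lay in the periportal tercile. The plot by duct transcripts gives the same levels for all spots and for the periportal tercile.

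**Figure D3:**
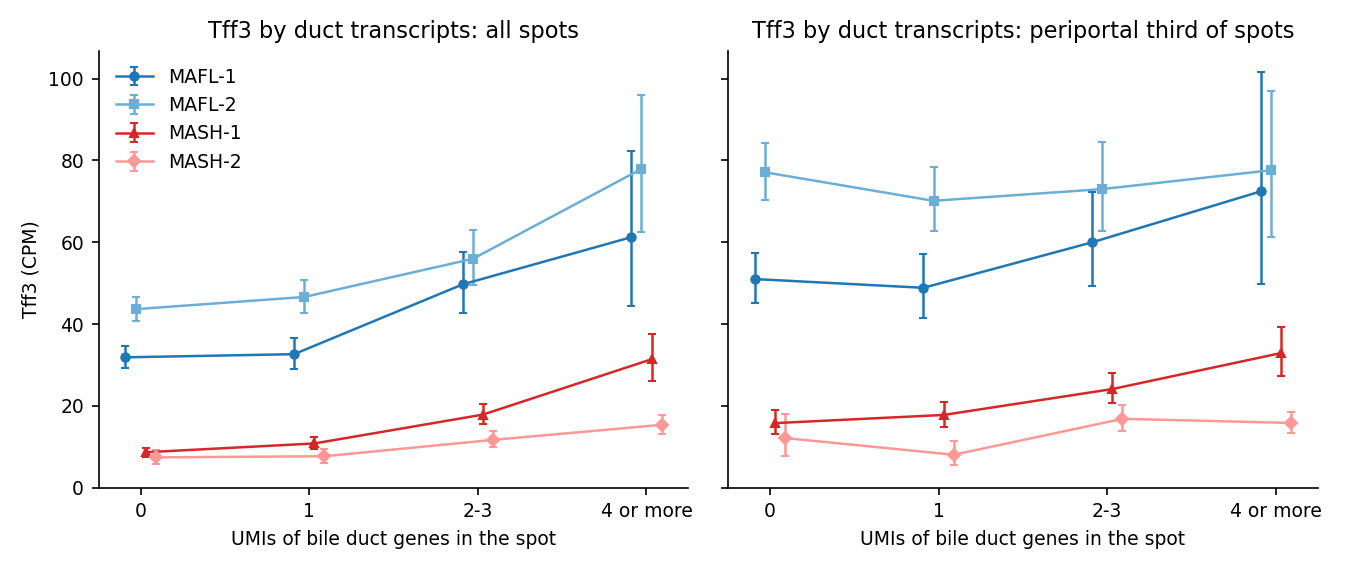
The Tff3 level in CPM is plotted for spots with 0, 1, 2 to 3 and 4 or more UMIs of the 17 bile duct genes, over all spots (left) and over the periportal tercile of spots (right), with exact 95% Poisson intervals. In each class both MAFL sections (blue) lie above both MASH sections (red), and the MAFL lines are flatter among periportal spots.

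Tff2, the other trefoil gene seen, was also higher in periportal spots. Of its 27, 10, 49 and 42 UMIs, 20, 3, 30 and 30 lay in spots with 2 or more duct UMIs, and 4, 1, 15 and 3 in spots with none. In MASH-1 that last count is 30.6% of its UMIs, against 31.2% for Tff3, and no test of a difference between the genes was run. Its periportal and pericentral terciles held 10 and 2 UMIs in MAFL-1, 7 and 0 in MAFL-2, 41 and 2 in MASH-1 and 30 and 1 in MASH-2. The edgeR log2 ratio of periportal to pericentral spots was 3.52 (SE 0.46, adjusted p = 8.3e-08, higher in 4 of 4 sections). Between the groups its log2 ratio was 0.56 (SE 0.54, adjusted p = 0.606).

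Goblet cell genes were almost absent. Of 21 genes of secretory epithelium and goblet cells, 9 gave 0 UMIs in all sections, among them the gel-forming mucin genes Muc5ac, Muc5b and Muc6, the mucin-folding gene Agr2 and the goblet cell genes Clca1 and Zg16. Muc2, the main intestinal mucin, gave 1, 7, 0 and 1 UMIs, and Fcgbp, whose product binds TFF3 in mucus, 3, 2, 8 and 10. The list's summed level, 913 to 1069 CPM, lay almost wholly in Pigr, the antibody transporter gene, and Cldn3, a tight junction gene, which liver cells express. Of 10 genes of intestinal absorptive epithelium 5 gave 0 UMIs in all sections: the gut factor genes Cdx1 and Cdx2, the brush border genes Sis and Alpi, and Phgr1. Others of that list were measured in every section, with the apolipoprotein gene Apoa4 at 1135 to 4854 CPM, the fatty acid binding protein gene Fabp2 at 239 to 452 CPM and the galectin gene Lgals4 at 13.7 to 33.8 CPM. Of 10 pancreatic acinar genes 5 also gave 0 UMIs in all sections (Try4, Pnlip, Clps, Cpb1 and Amy2a5), and Cela1, an elastase gene, stood at 13.6 to 25.3 CPM.

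Over single spots the counts of Tff3 rose weakly with Alb and most periportal hepatocyte genes and fell weakly with most pericentral ones. They did not move in 1 direction with most duct genes, Epcam and Krt19 among them. Spearman's rho over thinned spots is a description here: the spots of a section share a library, and these are sparse counts. Alb had the highest median rho of 5564 genes seen in at least 5% of thinned spots of every section, at 0.180, 0.205, 0.130 and 0.0450. Next came Mup20, the apolipoprotein gene Apoa4, the lipid droplet enzyme gene Hsd17b13 and the haem-binding protein gene Hpx. Cyp2f2 had values of 0.113, 0.134, 0.0712 and 0.0281, and Cyp2e1 the lowest median rho of all, at -0.182, -0.207, -0.137 and -0.0454. Epcam had 0.00890, 0.0264, 0.0282 and -0.0264, and Krt19 -0.0231, -0.0115, 0.0430 and 0.00750. Of 12 duct genes with a value in every section, 3 had a rho above 0 in all 4 (Cldn7, Slc5a1 and Prom1) and none below 0 in all. The share above 0 in all sections was 7.51% over the 5564 genes. No duct gene was seen in enough spots to be among those 5564, so that share is not a like background. Cldn7, a claudin gene, had 0.0256 in MASH-2 and 0.0417 to 0.05 in the other sections, and it alone of the 12 was also above 0 in all 4 periportal terciles (0.0292 to 0.0828). Epcam was seen in 0.914% to 3.63% of thinned spots, so a correlation with it has few spots to rest on. At 10000 UMIs per spot, 5 of 15 duct genes had a rho above 0 in all 4 sections and 0 below 0 in all. Those 5 were Krt19, Krt7, Cldn7, Pkhd1 and Tspan8. The share over all genes was not taken at that depth.

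Within a narrower zone the values were smaller. Among spots of the periportal tercile the median rho was 0.0675 for Alb, -0.0675 for Cyp2e1 and -0.0439 for Cyp2f2. Over all spots, 12 of 17 periportal hepatocyte genes seen in enough spots had a rho above 0 in all 4 sections. Of 16 pericentral ones, 15 had a rho below 0 in all. Of 15 general hepatocyte genes, 8 had a rho above 0 in all sections and 2 below 0 in all. Of all 5564 genes, 7.51% had a rho above 0 in all sections and 8.77% below 0. The periportal and pericentral lists reflect the Cyp2f2 to Cyp2e1 ratio that the choice of Tff3 used. None of the 17 duct genes reached the 5% share of spots.

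The genes with the profile most like that of Tff3 over the lobule and the sections were Itih3, Sdc1 and Itih2. Likeness was Pearson's r of log2(CPM + 1) over 40 points, the 10 zone bins of the 4 sections, among 6350 candidate genes. Points of a section share a library, and the measure includes the group difference that chose Tff3. Of the inter-alpha-trypsin inhibitor family, whose products stabilise hyaluronan matrix, 3 members were in the top 10: Itih3 (r = 0.958), Itih2 (0.949) and Itih4 (0.921). Sdc1 (0.954), a heparan sulfate proteoglycan gene of the hepatocyte surface, ranked between Itih3 and Itih2. The other 6 were Aspg, Ahsg (fetuin-A), Nat8f1, St3gal5, Iigp1 and Ftcd, at 0.924 to 0.931. In all, 17 genes had r above 0.9 and 26 below -0.9, and the median gene had -0.19.

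The genes at the top of this order differed less between the groups than Tff3 itself. Itih3 stood at 1011 and 1027 CPM in MAFL and at 614 and 642 CPM in MASH, and Sdc1 at 257 and 280 against 200 and 167 CPM. The mean of the 3 most periportal bins over that of the 3 most pericentral ones was 2.81, 3.18, 4.24 and 2.92 for Tff3, but 1.34, 1.28, 1.52 and 1.58 for Itih3. At the other end were Serpina7 (r = -0.967), the thyroxine-binding globulin gene, Akr1a1, Reln, Creg1 and Eif4ebp1 (-0.934). Serpina7 ran as a mirror of Tff3, at 8.37 and 6.40 CPM in MAFL and 53.4 and 41.4 CPM in MASH, and highest in the most pericentral bins. The plot of profiles shows the gene with the lowest r and the 4 genes most like Tff3.

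**Figure D4:**
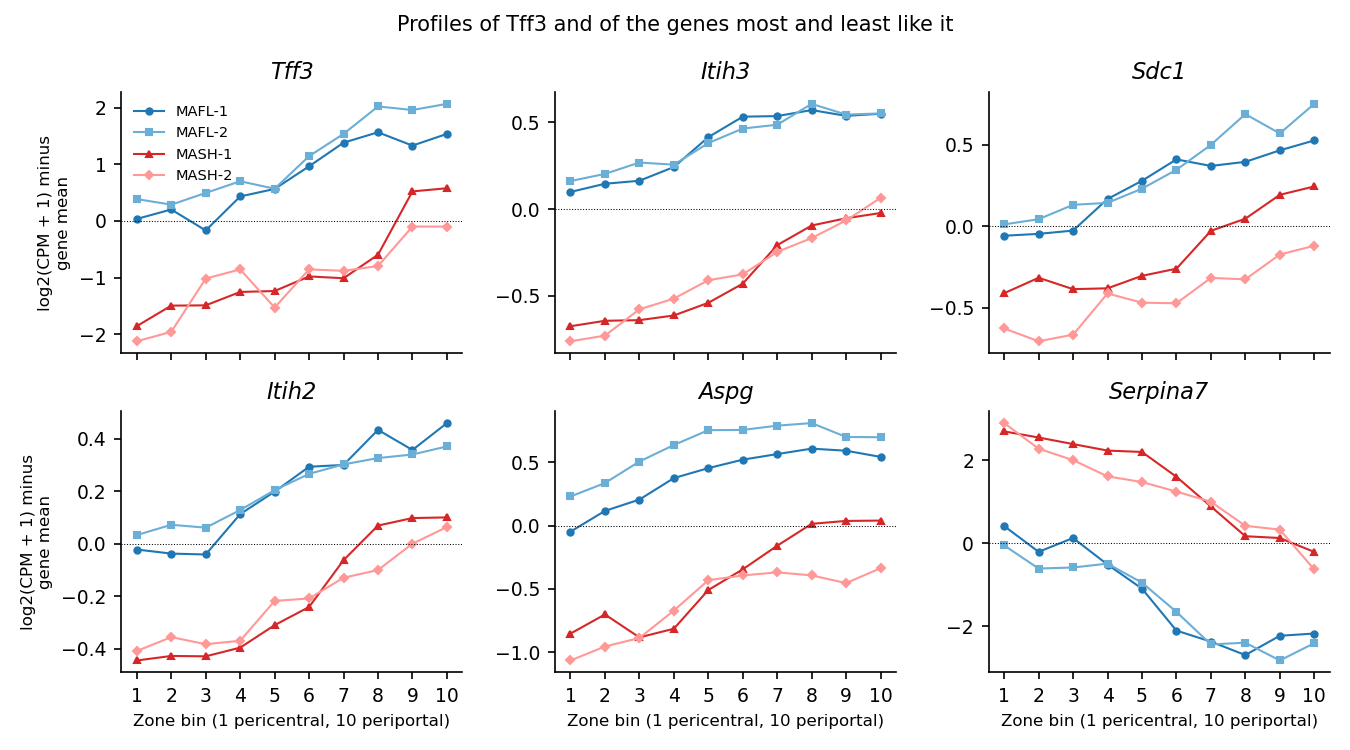
Each panel gives log2(CPM + 1) minus the gene's own mean over the 10 zone bins (bin 1 pericentral, bin 10 periportal) of the 4 sections, for Tff3, the 4 genes with the highest r with it and Serpina7, with the lowest; the vertical scale differs between panels. The first 5 genes are higher in MAFL (blue) and towards bin 10, and Serpina7 runs the other way.

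Whether Tff3 followed features of the tissue other than zone was tested within sections. Spots were ranked by the share of their UMIs in a gene or gene list, within each zone bin and each of 2 depth classes, and the top tercile (rich) was compared with the bottom tercile (poor) with the section as a block. The 5 rankings used Thrsp, a lipogenesis gene named in the title of the series, lipid-associated macrophage (LAM) genes, matrix genes of fibroblasts and stellate cells, endoplasmic reticulum (ER) folding genes and lipid droplet genes. All adjusted p-values here come from edgeR's quasi-likelihood test with Benjamini-Hochberg adjustment over all genes of a comparison.

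Tff3 was slightly higher in matrix-rich spots. The level in rich and poor spots was 42.0 and 31.7 CPM in MAFL-1, 48.3 and 44.3 in MAFL-2, 13.7 and 10.9 in MASH-1 and 11.8 and 7.90 in MASH-2, higher in 4 of 4 sections. The fold was 1.17 (log2 0.22, SE 0.06, adjusted p = 0.0178). In this comparison 15.1% of 12556 genes were called, 7.73% as higher. Duct genes moved with the ranking: they summed to 57.7 and 28.9 CPM in rich and poor spots of MAFL-1, 43.5 and 27.9 in MAFL-2, 48.3 and 27.3 in MASH-1 and 116 and 54.9 in MASH-2. Of 13 duct genes tested, 11 were higher in matrix-rich spots. Among spots with 0 duct UMIs the log2 ratio was 0.19 and the call was lost (adjusted p = 0.253). It was also lost without MAFL-1 (adjusted p = 0.129), without MASH-1 (0.0693), with DESeq2 (0.201) and without matching for zone (log2 0.09, adjusted p = 0.375).

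The other 4 rankings gave no call for Tff3. For Thrsp the rich and poor spots stood at 35.3 and 37.0 CPM in MAFL-1, 48.5 and 44.5 in MAFL-2, 14.0 and 11.2 in MASH-1 and 14.3 and 7.75 in MASH-2 (log2 0.19, SE 0.06, adjusted p = 0.113), in a comparison where 0.976% of 12606 genes were called. Without MAFL-1, where 1315 of 2036 spots had 0 Thrsp UMIs, it was 0.30 and called (adjusted p = 0.00396). Among spots with 0 duct UMIs it was -0.10 (adjusted p = 0.957).

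For LAM genes the log2 ratio was 0.19 (SE 0.07, adjusted p = 0.0954), with 4.32% of genes called and Tff3 higher in 4 of 4 sections. Duct genes moved with this ranking too: they summed to 50.1 and 34.3 CPM in rich and poor spots of MAFL-1, 37.8 and 30.05 in MAFL-2, 42.1 and 31.6 in MASH-1 and 106 and 56.9 in MASH-2. Among spots with 0 duct UMIs the log2 ratio of Tff3 was 0.07 (adjusted p = 0.890). Over all spots it passed the threshold with library totals in place of TMM (log2 0.25, adjusted p = 0.0485), and was -0.08 without matching for zone (adjusted p = 0.581). For ER folding genes it was -0.12 (SE 0.06, adjusted p = 0.404), with 2.13% of genes called. Without matching for zone that ratio was 0.32 and called (adjusted p = 0.000957). For lipid droplet genes it was -0.16 (SE 0.06, adjusted p = 0.701), with 0.04% of genes called. Without matching for zone that ratio was -0.61 (adjusted p = 0.474). The plot of the spot classes gives the log2 ratio in each section.

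**Figure D5:**
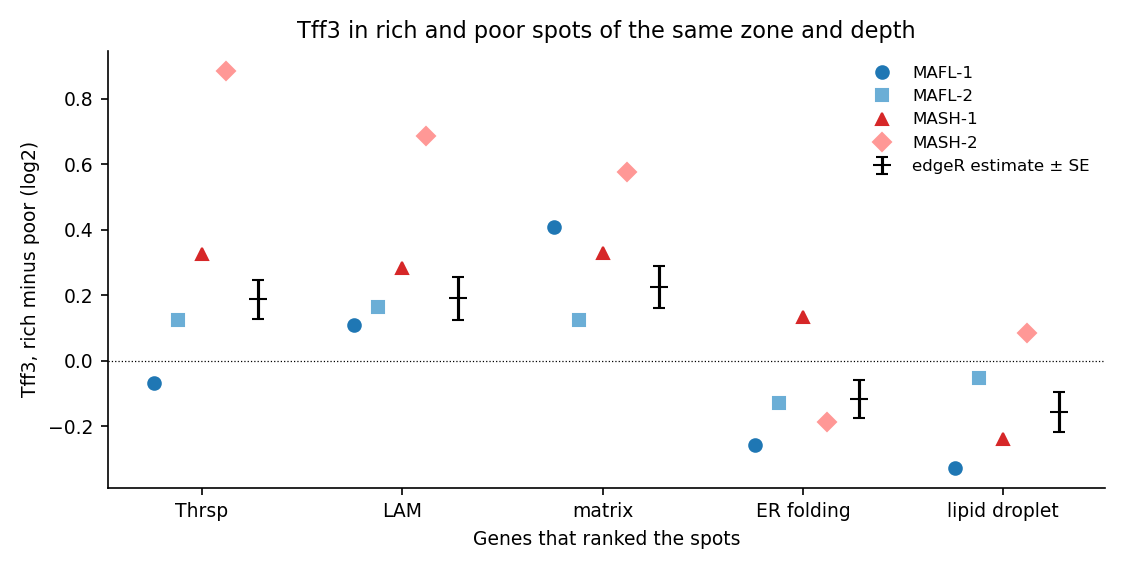
Points give the log2 ratio of the Tff3 level in rich over poor spots of the same zone and depth in each of the 4 sections, for 5 rankings of spots, and the bars with whiskers give the edgeR estimate ± SE. All 4 points lie above 0 for the matrix and LAM rankings, and MASH-2 has the highest point in 4 of the 5 rankings.

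The Thrsp points were -0.07 and 0.12 in MAFL and 0.33 and 0.89 in MASH, and an interaction of ranking and group was fitted after they were seen. The effect was 0.03 in MAFL and 0.53 in MASH, a difference of 0.50 on the log2 scale (SE 0.12, adjusted p = 0.0498), in a test that called 0.151% of 12606 genes. It sat at the threshold and did not keep the call under most alternatives: without MASH-2 it was 0.28 (adjusted p = 0.991), without MAFL-1 0.44 (0.769), without MAFL-2 0.61 (0.0837), with DESeq2 0.56 and among spots with 0 duct UMIs -0.12 (0.979). Duct genes summed to 92.7 CPM in Thrsp-rich and 72.1 CPM in Thrsp-poor spots of MASH-2. The same interaction for the other 4 rankings had adjusted p-values of 0.639 to 0.993.

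The other genes of the TFF3 pathway and the cells around it were read from 17 lists, with 194 distinct genes tested between MASH and MAFL. In that comparison edgeR called 62 of 13593 genes (0.456%), and none of the 194, although 42 had an unadjusted p under 0.05 and a higher level in MASH and 17 a lower one. Over all 13593 genes those counts were 1393 and 1212. DESeq2 called 27 of the 194 as higher, where it called 2.73% of all genes as higher, and 9 as lower, where it called 1.88%. Among receptors and partners proposed for TFF3, 3 of 10 had enough UMIs for the test. Egfr, the growth factor receptor gene, stood at 279, 253, 126 and 198 CPM (log2 -0.83, SE 0.21, edgeR adjusted p = 0.127). Cxcr4, a chemokine receptor gene, gave 13, 21, 70 and 118 UMIs (log2 1.82, SE 0.49, adjusted p = 0.138). Of the 3 tested, edgeR called none, and DESeq2 called 1 as higher and 1 as lower, beside its shares over all genes given above. Lingo2 and Lingo3 gave 0 UMIs in all sections.

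Of 12 tested transcription factor genes reported at trefoil promoters, 3 had a log2 ratio above 0 and the median was -0.16, against 0.01 for all genes. Foxa2, a hepatocyte and epithelial pioneer factor gene, stood at 35.8, 23.7, 16.9 and 16.9 CPM (log2 -0.91, SE 0.20, edgeR adjusted p = 0.0985). Foxa3 had -0.45 (adjusted p = 0.248) and Foxa1 -0.84 (adjusted p = 0.336). Foxa1 stood at 18.9, 7.97, 8.37 and 7.49 CPM, so its groups overlap and MAFL-1 alone stood high. In the lobule comparison 3 of the 12 were higher in periportal spots (Foxa3, Stat3 and Hif1a) and 1 lower (Cebpb), where 9.01% of all genes were called as higher and 10.3% as lower, with Foxa3 at a log2 ratio of 0.32 (adjusted p = 3.0e-05). Foxa2 had 0.07 there (adjusted p = 0.547).

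Secreted peptides such as TFF3 fold in the ER, and of 26 ER folding genes tested 4 had a log2 ratio above 0 between MASH and MAFL, with a median of -0.40. The wide gap between MAFL-1 and MAFL-2 stands beside this: Hspa5 was at 1269 and 428 TMM-scaled CPM in them (log2 -1.03, SE 0.54, adjusted p = 0.374). Without MAFL-1, 16 of the 26 lay above 0 (median 0.03). Of 18 periportal hepatocyte genes 5 had a log2 ratio above 0 (median -0.27) and of 18 pericentral ones 14 (median 0.27). Without MAFL-1 these counts were 2 and 8 of 18 (medians -0.46 and -0.05), and without MASH-1 7 and 8 (medians -0.20 and -0.14). Of 15 duct genes 14 lay above 0 (median 0.83), with Epcam at 1.04 (SE 0.56, adjusted p = 0.371) and Krt19 at 0.77 (SE 0.53, adjusted p = 0.460). That rested on MASH-2: Epcam stood at 2.79, 2.07, 2.57 and 8.43 CPM, and without MASH-2 only 6 of the 15 lay above 0 (median -0.10). Matrix genes (14 of 16 above 0, median 0.82) and LAM genes (12 of 13, median 1.70) lay on the other side of 0 from Tff3, also without MASH-2 (13 of 16, median 0.41, and 12 of 13, median 1.33).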

How the data were processed

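The authors made the files with Space Ranger (version 1.2.2, per the file headers) and mm10, per the submitters' processing notes; the annotation release is not given in the sources used here. The deposited matrices hold counts: whole-number UMIs of 1 gene in 1 spot, not scaled. Barcodes and gene names came from the deposited tables, and spot positions were not used here.

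Spots under 500 UMIs were left out. Counts were summed per section, zone bin or spot class and given as CPM of all UMIs. Each spot was thinned to 5000 UMIs for shares and correlations. All genes were tested in R 4.3.3 by the robust quasi-likelihood test of edgeR 4.0.16, after filterByExpr and TMM scaling, at a threshold of 0.05 on p adjusted by Benjamini-Hochberg, and by DESeq2 1.42.0 as an alternative. Sums and descriptions used Python 3.11.15 (numpy 2.4.6, pandas 2.3.3, scipy 1.17.1). Genes that ranked spots were left out of that comparison. With 2 sections a group, an exact permutation test cannot go below 0.3333. Replicate sections differed beyond counting error, with a chi-square per degree of freedom of 67.7 in MAFL and 116 in MASH.

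Tff3, the 17 gene lists (239 symbols, 238 found, Anxa13 not analysed here) and the tests were chosen with earlier results of these data known. The genes named were the trefoil genes, Epcam, Krt19, Cyp2f2, Cyp2e1 and Thrsp, the 10 genes most and 5 least like Tff3 over zone bins, the 5 with the highest median rho, the 3 nearest genes on each side, and up to 4 members of the smallest p per list. Others were named after their values were seen. Gene positions came from RefSeq's GRCm38.p6 table.

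On simulated data with 200 genes changed, the fit of whole sections (13593 genes) recovered 51 of 100 genes with 2-fold and 89 of 100 with 4-fold changes, with 8 of 148 calls false. The fit of Thrsp classes (12606 genes) recovered 88 and 97, with 10 of 195 false. Simulated counts took their spread from edgeR's smooth trend over genes alone, with no extra spread of single genes. These rates need not hold for the measured data. Alternatives were other scalings, filters, thinning depths, zone genes and spot sets, DESeq2, a replicate block and each section left out.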

Additional observations from a re-analysis of the deposited data

Results flagged for a closer look

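The effect of Thrsp-rich against Thrsp-poor spots on Tff3 differed between the groups in the interaction test: MASH minus MAFL was 0.50 on the log2 scale (SE 0.12, edgeR adjusted p = 0.0498). Over its alternatives the adjusted p ran from 0.000848 without MASH-1 to 0.999943 with DESeq2. The test was added after the section values were seen, and the cause was not tested.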

How the results depend on the processing

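Limits: 2 sections a group from an unstated number of animals, few Tff3 UMIs in a spot, no spot positions, and zone read from the same libraries. Tff3 stayed lower in MASH and higher in periportal spots under all alternatives run. The level (log2 -1.81) was -2.21 in spots with 0 duct UMIs and -2.03 to -1.59 with 1 section left out. The zone ratio (1.64) was 1.94 with the top and bottom 20% of spots and 1.53 to 1.71 with 1 section left out. The difference in share of spots (-12.2 percentage points) was -5.39 at 2000 UMIs, -20.3 at 10000, -23.3 without thinning, and -14.2 to -10.1 with 1 section left out. Median rho in the periportal tercile was -0.00825 for Epcam, -0.0675 for Cyp2e1, 0.0675 for Alb and, against 0.0921 over all spots, -0.0439 for Cyp2f2; at 10000 UMIs it was 0.0294 for Krt19 and 0.154 for Cyp2f2.

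The count of genes that edgeR called between the groups (62) was 1153 with no filter on low genes, 627 with DESeq2, 20 without MAFL-1, 535 without MASH-1 and 23 without MASH-2 (20 to 535 in all). Same-numbered sections deviated from their group means with a correlation of -0.195. Within a group these deviations mirror each other, so crossing the numbers would only turn the sign of that value. The correlation therefore cannot decide whether the numbers pair the sections. With the replicate number as a block the count was 0 (1900 genes at an unadjusted p under 0.05), and with the numbers crossed, added after seeing the data, 779. Library totals moved the median log2 ratio of all genes to 0.11. The lobule count (2419) was 1130 with DESeq2, 1468 without MASH-1 and up to 2042 with another section left out.

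For Tff3 in the spot classes, all on the log2 scale, the Thrsp ratio was -0.10 in spots with 0 duct UMIs and 0.091 to 0.30 with 1 section left out. The LAM ratio was 0.25 with library totals and -0.085 without zone matching, and the ER folding ratio 0.32 without zone matching. The matrix ratio was 0.25 with DESeq2, 0.19 in spots with 0 duct UMIs, 0.090 without zone matching and 0.18 to 0.32 with 1 section left out. The Thrsp interaction was 0.50 with RLE factors (adjusted p = 0.0938), 0.49 with library totals (0.336), 0.56 with DESeq2, 0.47 with no spot filter, 0.46 with spots of at least 2000 UMIs, 0.56 with the top and bottom 20%, -0.12 in spots with 0 duct UMIs, -0.15 without zone matching, and 0.28 to 0.85 with 1 section left out. Counts of called genes ran from 1 to 121 for Thrsp (123), 52 to 967 for LAM (541), 48 to 402 for ER folding (268), 429 to 2025 for matrix (1902) and 4 to 95 for lipid droplet genes (5). With 1 section left out, added after seeing the data, the median log2 ratio between the groups ran from -0.098 to 1.31 for duct genes (0.83), -0.67 to 0.030 for ER folding genes (-0.40) and -0.14 to 0.64 for pericentral genes (0.27). The causes were not tested.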
